A study of Mus musculus with 8 samples.

Results

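NFATc2 sites that lay in H3K4me3 but away from an annotated transcription start site (TSS) were chosen by position alone. A site was a peak of the NFATc2 list whose summit was more than 1 kb from every TSS of the mm9 gene annotation and which overlapped a peak of 1 or more of the 3 H3K4me3 lists by at least 1 bp. Of 9438 NFATc2 peaks 1670 met both conditions, or 17.7% (16.9 to 18.5%). Intervals after shares are 95% Wilson intervals and cover counting error only. Among the 8150 NFATc2 sites more than 1 kb from a TSS the marked sites were 20.5% (19.6 to 21.4%), whereas 1011 of 1288 sites within 1 kb of a TSS were marked, or 78.5% (76.2 to 80.7%).

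Trimethylation of histone H3 at lysine 4 (H3K4me3) is known as the mark of active and poised promoters, where it covers the nucleosomes around the TSS and often reaches into the start of the gene. Weaker and shorter H3K4me3 is also known at unannotated promoters and at very active enhancers. NFATc2 is a transcription factor that stays in the cytoplasm until the phosphatase calcineurin removes its phosphates, and FK506 blocks calcineurin. In dendritic cells (DCs) dectin-1, the receptor for fungal β-glucans, is 1 of the receptors that raise calcium and so activate calcineurin.

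The cells were D1, a long-term splenic DC line of C57BL/6 origin that grows in culture. NFATc2 was mapped with an anti-V5 antibody in D1 cells that stably expressed V5-tagged NFATc2 and had received 10 µg/ml curdlan, a β-glucan, for 30 min, and H3K4me3 was mapped in libraries labelled D1 that were non-treated (NT), given 10 µg/ml curdlan for 2 h, or given curdlan with FK506 for 2 h. The site list therefore describes a tagged protein in a cell line at an earlier time than the mark, and the FK506 dose of these libraries is not given in the labels. Every condition had 1 ChIP library and 1 input, so differences between conditions could not be set against a spread between replicates, and they are given without p-values.

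The ChIP libraries held 14377535 tags for NFATc2, 16662316 for H3K4me3 in NT cells, 21289349 with curdlan and 19468498 with curdlan and FK506. Peaks held 5.58% of the NFATc2 tags and 51.3 to 57.9% of the H3K4me3 tags. Of 12 genes fixed as DC and myeloid markers 11 had an H3K4me3 peak at the TSS in NT cells, among them Itgax, Clec7a (dectin-1 itself) and Zbtb46. None of 5 B cell, 3 NK cell and 3 neural markers had one, whereas 1 of 7 T cell markers (Lck) and 1 of 6 erythroid and stromal markers (Klf1) did.

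Overlapping peaks of the 3 H3K4me3 lists were joined into 16088 domains, and the 1670 sites lay in 1565 of them. A single site was held by 1464 domains, 97 domains held 2 sites and 4 held 3. Of the sites, 574 (34.4%, 32.1 to 36.7%) lay in a domain that also contained an annotated TSS, and 1096 lay in a domain without a TSS. The split was not sharp, because the share in a domain that contained or came within 1 kb of a TSS was 39.0%. Nfkbia is an example, with a domain that ended just short of its TSS.

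Sequences are shown for 12 sites that carry the results below: the site with the most NFATc2 tags (Nrp1), sites upstream of Ier3, Edn1, Egr3 and Nr4a1 whose H3K4me3 was higher with curdlan than in NT cells and lower with FK506, and sites near genes of the lists described below. Each runs 50 bp to each side of the summit on the plus strand of mm9, and capitals mark every match on either strand to GGAAA or GGAAAA (NFAT core), TGANTCA (AP-1), GAGGAAGT (PU.1 and other ETS factors), GGGNNTTCC (NF-κB) or TGTGGT (RUNX).
Nrp1, chr8:130876936-130877036: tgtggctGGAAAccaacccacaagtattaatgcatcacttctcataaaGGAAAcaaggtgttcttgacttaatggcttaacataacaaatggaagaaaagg
Ier3, chr17:35950192-35950292: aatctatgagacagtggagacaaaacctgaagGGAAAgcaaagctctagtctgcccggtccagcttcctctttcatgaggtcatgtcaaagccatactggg
Edn1, chr13:42349604-42349704: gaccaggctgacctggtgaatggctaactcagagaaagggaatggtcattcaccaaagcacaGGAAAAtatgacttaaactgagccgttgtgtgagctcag
Edn1, chr13:42353815-42353915: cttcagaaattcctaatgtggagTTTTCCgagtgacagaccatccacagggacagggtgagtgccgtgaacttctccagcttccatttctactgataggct
Egr3, chr14:70461961-70462061: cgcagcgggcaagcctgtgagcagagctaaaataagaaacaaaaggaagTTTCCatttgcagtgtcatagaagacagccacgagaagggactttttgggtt
Egr3, chr14:70466079-70466179: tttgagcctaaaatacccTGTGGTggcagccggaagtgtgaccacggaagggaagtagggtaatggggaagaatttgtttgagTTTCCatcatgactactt
Nr4a1, chr15:101087404-101087504: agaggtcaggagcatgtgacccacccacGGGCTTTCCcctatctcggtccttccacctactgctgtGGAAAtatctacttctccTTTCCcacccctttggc
Pim1, chr17:29572517-29572617: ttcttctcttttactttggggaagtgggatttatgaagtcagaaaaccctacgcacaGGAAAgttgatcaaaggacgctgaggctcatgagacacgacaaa
Pdcd1lg2, chr19:29474840-29474940: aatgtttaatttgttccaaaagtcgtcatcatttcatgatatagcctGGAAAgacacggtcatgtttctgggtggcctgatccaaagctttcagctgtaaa
Ccl12, chr11:81914055-81914155: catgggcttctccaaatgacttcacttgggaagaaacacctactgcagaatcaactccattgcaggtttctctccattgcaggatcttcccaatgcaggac
Rel, chr11:23662795-23662895: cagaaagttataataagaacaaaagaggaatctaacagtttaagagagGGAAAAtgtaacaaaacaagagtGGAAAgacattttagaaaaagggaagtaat
Spry1, chr3:37553208-37553308: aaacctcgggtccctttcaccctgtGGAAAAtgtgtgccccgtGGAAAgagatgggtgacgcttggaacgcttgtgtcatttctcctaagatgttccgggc

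The NFAT core was the most frequent of these motifs near the summits. GGAAAA was found within 100 bp of the summit at 758 of the 1670 sites, or 45.4% (43.0 to 47.8%), beside 17.7% of windows of the same length placed 1 kb to each side. Over all 9438 NFATc2 sites the share was 45.6%, over promoter sites in H3K4me3 49.2%, and over sites outside H3K4me3 and away from a TSS 45.2%, so the marked sites did not stand apart in this motif. The shorter GGAAA, added after the data were seen and contained in GGAAAA, was present at 87.1% of the marked sites, at 86.7% of all sites and at 46.7% of the windows 1 kb away. Among the sequences shown, both Edn1 sites and those of Rel and Spry1 held GGAAAA, the Ccl12 site held none of the motifs, and the others held GGAAA alone or, at 1 Egr3 site and at Nr4a1, with a RUNX or an NF-κB motif.

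Motifs of partner factors differed more between classes of sites. TGANTCA, the site of AP-1, was present at 20.8% (19.0 to 22.9%) of the marked sites away from a TSS and at 14.5% (12.5 to 16.8%) of promoter sites in H3K4me3, with 21.8% over all sites and 6.50% in the windows 1 kb away. TGTGGT, bound by RUNX factors, was present at 28.6% (26.0 to 31.3%) of sites in domains without a TSS, 23.5% (20.2 to 27.2%) of sites in domains with a TSS and 18.3% (16.0 to 20.8%) of promoter sites, beside 28.4% of all sites. GAGGAAGT, bound by PU.1, was at 9.34% of the marked sites, 6.03% of promoter sites and 9.27% of all sites. GGGNNTTCC was at 4.97% of the marked sites and 4.33% of all sites. A match is a description of letters and was not tested as a binding site.

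**Figure D1:**
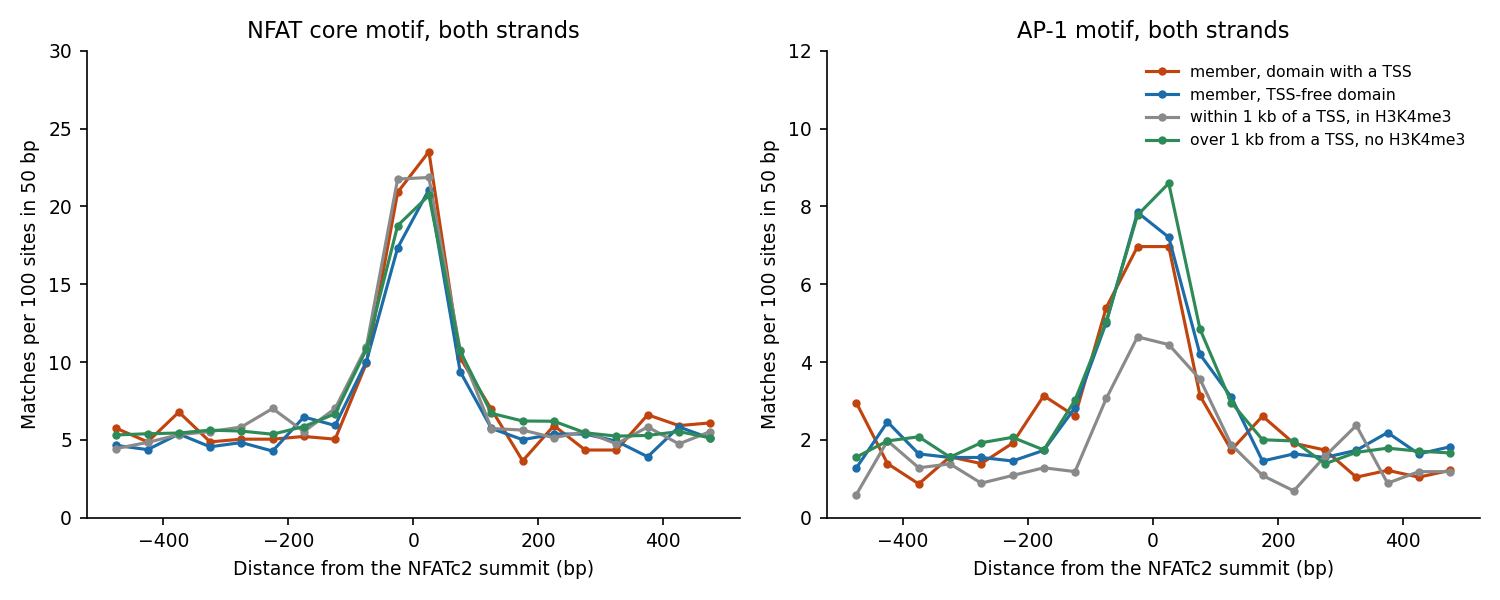
Matches of the NFAT core motif (left) and the AP-1 motif (right) per 100 sites in steps of 50 bp from the NFATc2 summit (x axis, bp), for sites in domains with a TSS (orange), in domains without a TSS (blue), promoter sites in H3K4me3 (grey) and sites outside H3K4me3 (green). All 4 classes peaked at the summit for both motifs, and the promoter sites had the lowest AP-1 peak.

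Base composition followed the class. The median GC content within 100 bp of the summit was 47.3% at the marked sites, 49.8% at promoter sites in H3K4me3 and 45.3% at sites outside H3K4me3. No CG dinucleotide was found in this window at 9.82% (8.48 to 11.3%) of the marked sites, 3.17% of promoter sites and 19.0% of sites outside H3K4me3, beside 15.6% of all sites. Sites in domains with a TSS lacked a CG more often (13.4%, 10.9 to 16.5%) than sites in domains without one (7.94%, 6.48 to 9.69%).

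The marked sites were mostly in introns and between genes. Introns held 53.7% (51.3 to 56.0%) of them, intergenic sequence 42.8% and exons 3.53%. In domains with a TSS 74.6% (70.9 to 78.0%) of sites were intronic and 20.2% intergenic, and in domains without a TSS 42.7% were intronic and 54.7% (51.7 to 57.6%) intergenic. The share of NFATc2 sites that carried H3K4me3 fell with distance, from 61.4% (57.4 to 65.2%) at 1 to 2 kb from a TSS to 28.9% at 2 to 5 kb, 17.2% at 5 to 20 kb, 13.7% at 20 to 100 kb and 9.92% (7.75 to 12.6%) beyond 100 kb. Most marked sites at 1 to 2 kb (305 of 364) shared their domain with a TSS, and none of the 368 marked sites at 20 to 100 kb or of the 58 beyond did. The longest domain was 21852 bp, so a site more than 20 kb from every TSS could hardly share a domain with one. At the 1 kb limit itself, 75 marked sites lay 900 to 1000 bp from a TSS with a median of 77 NFATc2 tags, and 58 lay at 1000 to 1100 bp with a median of 73.

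Per length of sequence, NFATc2 summits were dense in the mark. The domains covered 24.9 Mb that was more than 1 kb from a TSS and held 61.3 summits per Mb there, whereas the unmarked remainder held 2.71 summits per Mb, a ratio of 22.7. The number of summits here is 1529, since the summit itself lay inside the domain at 91.6% of the sites and only the flank of the NFATc2 peak reached the mark at the others.

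The place of NFATc2 in the domain differed between the classes. When each domain was divided into 3 equal parts, the summit lay in the central part at 31.8% (27.9 to 36.0%) of sites in domains with a TSS and at 52.5% (49.4 to 55.5%) of sites in domains without a TSS. The median distance to the nearest H3K4me3 peak summit was 1760 bp in domains with a TSS and 340 bp in domains without one, beside 561 bp for promoter sites. Within 250 bp of the H3K4me3 summit lay 4.32% (2.87 to 6.46%), 34.4% (31.6 to 37.4%) and 22.0% (19.5 to 24.6%) of sites in these classes. The rule keeps sites away from the TSS, and so by its construction away from the part of the domain beside it. The domains with a TSS were also longer, with a median merged length of 5460 bp beside 2263 bp without one. The part of domain length in these distances was not tested.

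In domains with a TSS the sites were more often downstream than upstream of the nearest TSS. Of 574 sites 401 (69.9%, 66.0 to 73.5%) lay downstream of the nearest TSS in the domain, at a median of 2156 bp, and 173 lay upstream at a median of 1529 bp. By the nearest TSS anywhere, 68.47% (64.55 to 72.13%) of the 574 were downstream, beside 41.2% (38.2 to 44.2%) of promoter sites in H3K4me3. How much marked sequence lay on each side of the TSS was not measured, so its part in these shares was not tested. At 1 to 2 kb lay 52.8% of the 574, at 2 to 3 kb 23.9%, at 3 to 5 kb 15.9% and farther 7.49%. The farther ones included the site in the intron of Rel, the NF-κB subunit c-Rel, at 8125 bp, and the site 6253 bp into Rhof in a domain of 21852 bp.

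**Figure D2:**
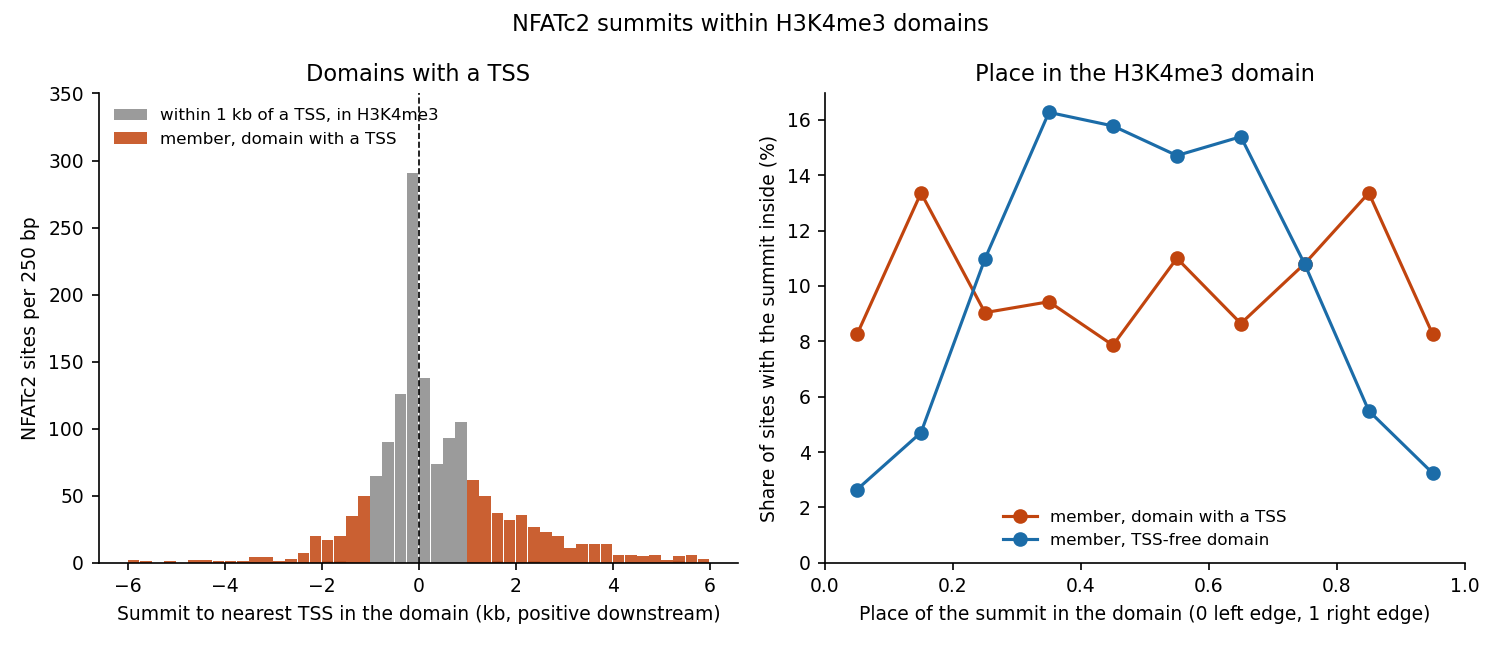
Left, number of NFATc2 sites per 250 bp against distance of the summit from the nearest TSS in the domain (kb, positive downstream), for promoter sites (grey) and sites more than 1 kb away in domains with a TSS (orange), drawn out to 6 kb. Right, share of sites (%) against place of the summit in the domain from left edge to right edge: sites in domains without a TSS (blue) were most frequent in the middle, and those in domains with a TSS (orange) were spread along the domain.

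The domains that held such sites were long. Merged length had a median of 5460 bp over the 528 domains with a TSS that held a site, beside 3110 bp over all 10316 domains with a TSS. Without a TSS the medians were 2263 bp over the 1037 domains with a site and 1800 bp over all 5772. A site was present in 5.12% (4.71 to 5.56%) of domains with a TSS and in 18.0% (17.0 to 19.0%) of domains without one. For domains of 2 to 4 kb these shares were 2.06% with a TSS and 23.4% without one, and for 6 to 8 kb 22.4% and 54.5%. A longer domain has more room beyond 1 kb from its TSS, and the part of length in these shares was not tested apart.

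NFATc2 peaks in the mark were stronger in tags than those outside it. The median was 89 tags (6.19 RPM, tags per 1000000 tags of the ChIP library) over the 1670 sites, 68 over promoter sites in H3K4me3, 58 over sites outside H3K4me3 and 63 over all sites. Within the marked sites it was 81 in domains with a TSS and 93.5 in domains without one. The order changed with the measure, since the median MACS fold enrichment over input was 12.5 for the marked sites, 11.7 for promoter sites and 13.8 for sites outside H3K4me3. Tags per kb of peak had medians of 62.2, 57.9 and 55.0. The length of the NFATc2 peak moved with the tags (median 1350 bp at the marked sites and 1020 bp outside H3K4me3), and its part in the tag counts was not tested.

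The share of NFATc2 sites that were marked and away from a TSS was larger among sites with more NFATc2 tags. When all sites were ordered by tags and cut into 5 equal classes, it was 6.67% (5.63 to 7.89%) in the class with the fewest tags. It was then 11.3%, 17.9% and 23.2%, and 29.4% (27.4 to 31.5%) in the class with the most. The part of peak length in these shares was not tested, and classes by fold enrichment were not made. Promoter sites in H3K4me3 made up 7.47 to 12.6% of the same classes and 10.4% of the class with the most tags. Among the 500 sites with the most tags 184 (36.8%, 32.7 to 41.1%) were marked and away from a TSS, and 57 were promoter sites.

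**Figure D3:**
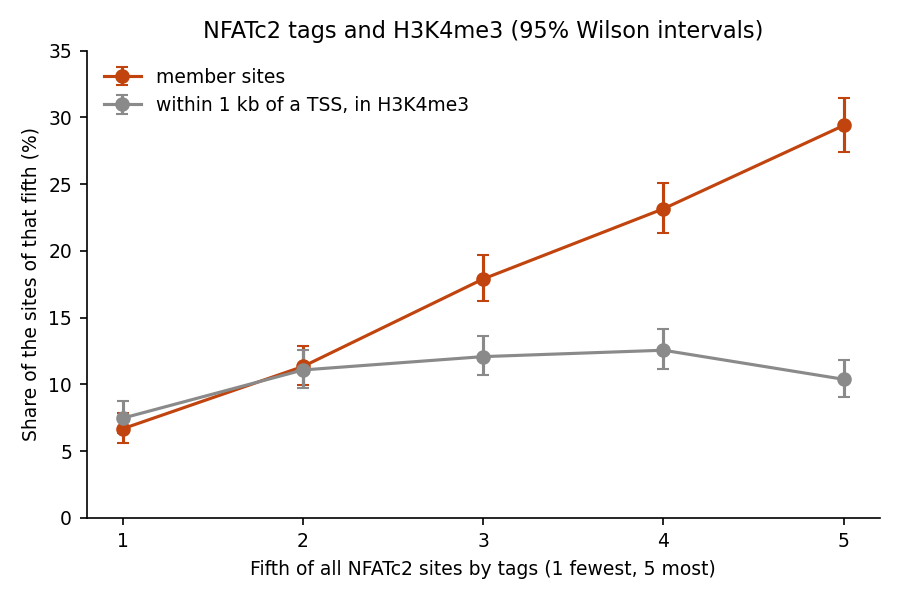
Share of NFATc2 sites (%, with 95% Wilson intervals) that were in H3K4me3 and more than 1 kb from a TSS (orange) or in H3K4me3 and within 1 kb (grey), by class of NFATc2 tags (x axis, 1 fewest to 5 most). The orange share climbed from 6.67 to 29.4%, and the grey share stayed between 7.47 and 12.6%.

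The site with the most tags (640, fold enrichment 43.7) lay at chr8:130874724-130881054, 5987 bp upstream of Nrp1, the neuropilin-1 coreceptor of semaphorins and VEGF. Its domain was overlapped by 2 further sites, with 115 and 123 tags, and the summit of the site with 123 tags lay outside the domain. The other domains with 3 sites were those of Cass4, of Med12l with P2ry13, and 1 upstream of a U1 RNA, with ratios of curdlan to NT of 1.41, 0.67 and 0.85. The next were a site 60062 bp downstream of the TSS of Gcnt1, an enzyme of core 2 O-glycan synthesis, with 624 tags, and a site 1296 bp upstream of Neat1, the long noncoding RNA that builds paraspeckles, with 617 tags. D5Ertd579e (589 tags), Farsb, a subunit of phenylalanyl-tRNA synthetase (561), and an intron of Cux1, a homeobox factor (557), followed. The 10 strongest were completed by Rfk, riboflavin kinase (532), Rhof (529), Srgn, the serglycin proteoglycan of myeloid granules (518), and Rheb, the GTPase that activates mTORC1 (515). Of these 10 sites 5 overlapped domains with a TSS (Nrp1, Neat1, Farsb, Rhof, Srgn) and 5 overlapped domains without one. At Nrp1, Farsb and Gcnt1 the summit lay outside the domain, and only the flank of the NFATc2 peak reached the mark. The sequence shown above for Nrp1 therefore lay outside its domain, as did those of Ccl12 and of the Edn1 site at chr13:42353815-42353915. The highest fold enrichment of a named site was 73.2 with 363 tags, 14256 bp downstream of the TSS of Spry1, a Sprouty inhibitor of growth factor signalling.

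The level of the mark depended on the class of the domain. In NT cells domains with a TSS that held a site had a median H3K4me3 level of 77.1 RPM, beside 40.6 over all domains with a TSS. Domains without a TSS that held a site had a median of 11.3 RPM, beside 9.24 over all domains without a TSS. These levels are sums over a domain, and the domains that held a site were longer. Per kb of called peak the NT medians lay closer, at 16.46 RPM beside 14.15 with a TSS. Without a TSS they were 5.403 beside 5.265. With curdlan the medians of the domains that held a site were 74.7 and 12, and with curdlan and FK506 70.1 and 11.8. Each median covers only the domains with a peak in that list. Without a TSS these were 886 domains in NT cells, 770 with curdlan and 741 with FK506. The medians are thus of different sets of domains and do not measure a change between the libraries. A peak in all 3 lists was called for 522 of 528 domains with a TSS (98.9%) and 590 of 1037 without one (56.9%, 53.9 to 59.9%), beside 61.5% over all domains without a TSS.

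The strongest domains without an annotated TSS had RPM as high as domains with one, but those at Jak2 lay on either side of its annotated TSS, which fell in the short gap between them. The domain at chr19:29326403-29332252 in Jak2, the cytokine receptor kinase, had 185 RPM in NT cells, 210 with curdlan and 191 with FK506, and its site of 212 tags lay 2220 bp downstream of the TSS. A second domain upstream of Jak2 with 2 sites had 216, 204 and 215 RPM. Between Fgd2 and the kinase gene Pim1 a domain of 8543 bp at chr17:29567347-29575889 held sites of 69 and 223 tags and had 182, 190 and 184 RPM. Their ratios of curdlan to NT, on the centred scale explained next, were 1.04 to 1.25.

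The effect of curdlan on the mark was measured as the ratio of RPM of a domain between the curdlan and NT libraries, divided by the median ratio over the 13976 domains of any kind that had a peak in each. On the log2 scale this median was −0.14. Of 1189 domains with a site and a peak in both lists 99 (8.33%, 6.89 to 10.0%) were more than 1.5-fold higher with curdlan, beside 4.34% of all domains, and 82 (6.90%, 5.59 to 8.48%) were more than 1.5-fold lower, beside 2.74% of all domains. In domains with a TSS 36 of 523 were higher (6.88%, beside 3.86%) and 13 lower (2.49%, beside 1.29%). In domains without a TSS 63 of 666 were higher (9.46%, beside 5.55%) and 69 lower (10.4%, beside 6.43%). The median log2 change was 0.07 in domains with a TSS and −0.09 in domains without one, beside 0.01 and −0.04 over all such domains. Domains with a site thus passed the limit in both directions at larger shares than all domains did.

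These counts depended on the measure. Without dividing by the median 72 domains were higher (6.06%, beside 2.73% of all domains) and 139 lower (11.7%, beside 5.93%), so the share of higher calls went from 54.7 to 34.1%. By RPM per kb of called peak 37 were higher (3.11%, beside 2.15%) and 42 lower (3.53%, beside 1.72%), and the length of the called peaks moved in the direction of the tags in 98 of the 99 higher domains. By the fold enrichment of the highest peak 163 were higher (13.7%, beside 15.2% of all domains) and 196 lower (16.5%, beside 15.2%), with no excess of higher domains.

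**Figure D4:**
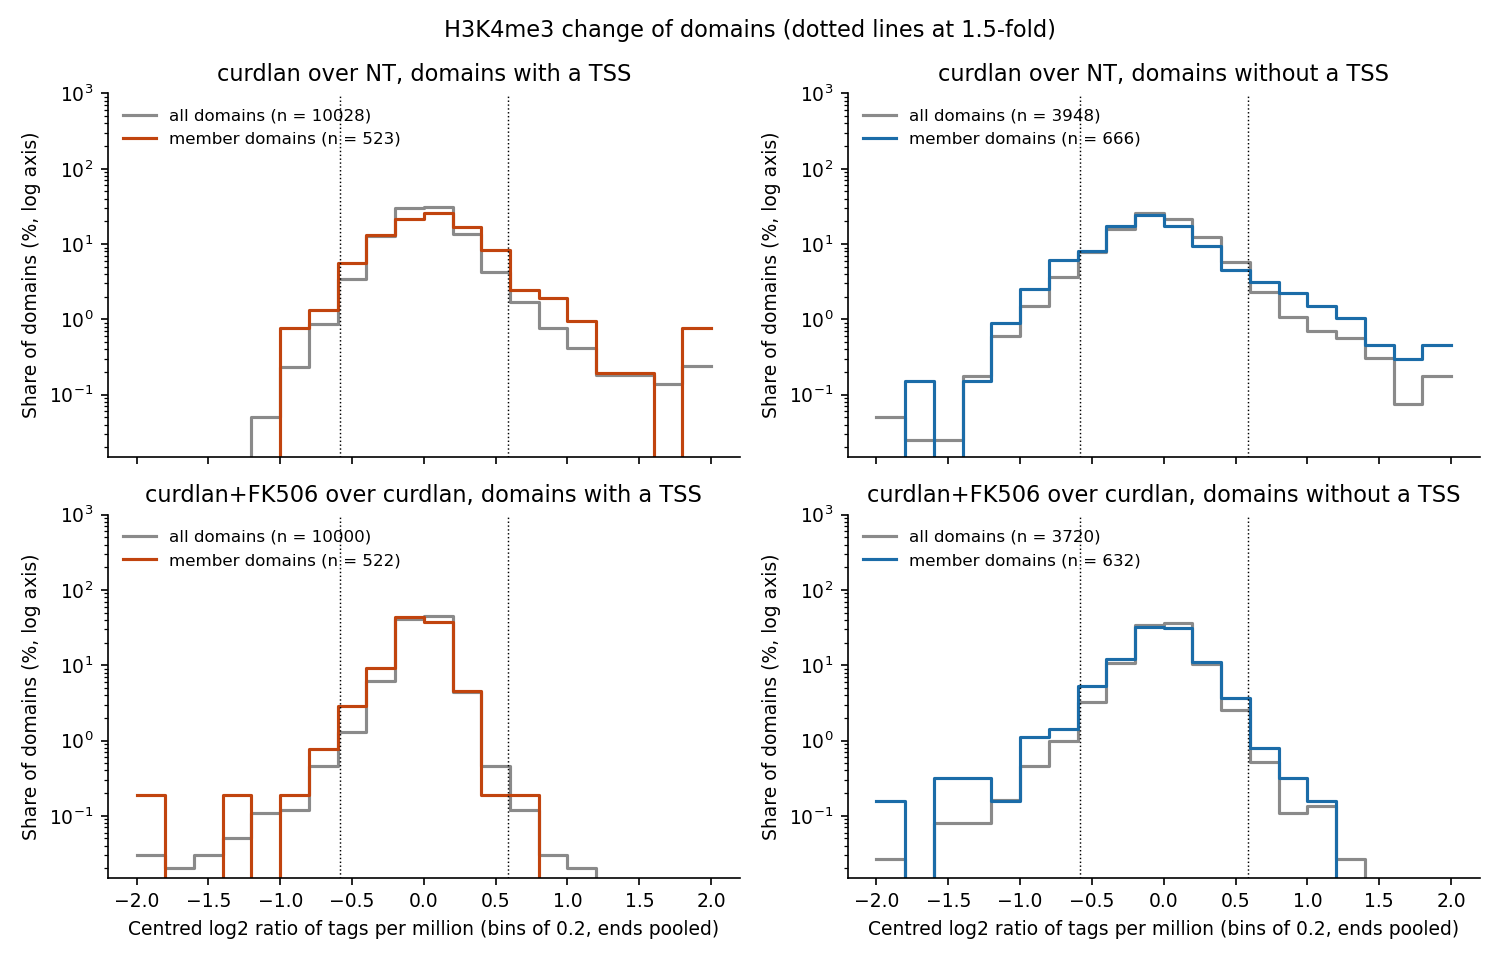
Share of domains (%, log axis) by centred log2 ratio of H3K4me3 RPM, for curdlan over NT (top) and curdlan with FK506 over curdlan (bottom), in domains with a TSS (left) and without one (right). Coloured lines are domains that held an NFATc2 site more than 1 kb from a TSS, grey lines all domains, and dotted lines stand at 1.5-fold: for curdlan over NT the coloured lines lie above the grey ones outside the dotted lines at most steps.

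The largest difference was in Cflar, which encodes c-FLIP, an inhibitor of caspase-8. The domain had 217 H3K4me3 tags in NT cells, 3062 with curdlan and 2374 with FK506, or 13.0, 144 and 122 RPM. The ratio of curdlan to NT was 12.2 (10.6 to 14.1, exact 95% binomial interval for counting error). The domain contained a TSS of Cflar, and its NFATc2 site of 221 tags lay in an intron. The called length was 3706 bp in NT cells and 7069 bp with curdlan.

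Next was a domain upstream of Nr4a1, an immediate early nuclear receptor. It covered chr15:101083716-101088892, held sites 12989 and 9823 bp upstream of the TSS with 33 and 80 NFATc2 tags, and contained no TSS. It had 64 tags in NT cells, 786 with curdlan and 399 with FK506, which gave ratios of 10.6 (8.23 to 13.9) for curdlan over NT and 0.57 (0.51 to 0.65) for FK506 over curdlan. The called length was 1331 bp in NT cells, 4194 bp with curdlan and 4396 bp with FK506. Per kb of called peak the RPM were 2.89, 8.80 and 4.66, a smaller difference than in the summed tags. Another domain 20475 bp upstream of Nr4a1 had 142, 213 and 78 tags.

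Cd83, a marker of mature DCs, had 273, 2835 and 2471 tags in a domain of 9456 bp with a TSS. Its 2 sites, of 87 and 63 NFATc2 tags, lay 3994 and 5598 bp downstream of the TSS in introns, and the ratios were 8.98 (7.93 to 10.2) and 0.98 (0.93 to 1.04). The called length was 2875, 7005 and 9207 bp in NT, curdlan and FK506, and the RPM per kb were 5.70, 19.0 and 13.8. An intergenic domain on chromosome 10 at 95728371-95732841, 103454 bp from its nearest TSS (AC131596.1), had 117, 1068 and 673 tags and ratios of 7.90 and 0.71. For 1190002H23Rik the counts were 67, 416 and 80 with a site at 2352 bp in the intron, and the ratios were 5.37 (4.14 to 7.06) and 0.22 (0.17 to 0.28). Its called length was 1448, 3383 and 1104 bp, and its RPM per kb were 2.78, 5.78 and 3.72. Fam167a had 175, 959 and 775 tags and ratios of 4.74 and 0.91. In RPM summed over the domain, the FK506 library was therefore close to the curdlan library at Cd83 and near the NT level at 1190002H23Rik.

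The 5 named domains with the largest falls had at most 334 tags in NT cells and no TSS, although 13 of the 82 lower domains had one. In an intron of Stk4, the Hippo pathway kinase MST1, the domain had 130 tags in NT cells and 44 with curdlan, a ratio of 0.29 (0.20 to 0.42), and no peak with FK506. An intron of Stk32c had 193 and 96 tags (ratio 0.43). Intergenic domains whose nearest TSSs were those of Arhgap27, 4921508M14Rik and a U6 RNA had ratios of 0.46, 0.45 and 0.44. With FK506 their tags were 107, 121 and 222, beside 135, 151 and 169 with curdlan.

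The effect of FK506 was measured as the ratio of the curdlan with FK506 library to the curdlan library, with a median of −0.05 on the log2 scale over 13720 domains. This ratio and the ratio of curdlan to NT share the curdlan library, so a value high by chance in that library raises the second and lowers the first. Of 1154 domains with a site 31 (2.69%, 1.90 to 3.79%) were more than 1.5-fold lower with FK506, beside 1.17% of all domains, and 9 (0.78%, 0.41 to 1.48%) were higher, beside 0.372%. In domains with a TSS 8 of 522 were lower (1.53%, beside 0.890%) and 1 higher (0.19%, beside 0.180%). In domains without a TSS 23 of 632 were lower (3.64%, beside 1.91%) and 8 higher (1.27%, beside 0.887%). By RPM per kb the balance of the calls turned, with 20 domains higher (1.73%, beside 0.488% of all domains) and 8 lower (0.69%, beside 0.525%), so the share of higher calls went from 22.5 to 71.4%. By the fold enrichment of the highest peak 133 were higher (11.5%, beside 14.5%) and 144 lower (12.5%, beside 14.6%), with both shares below those of all domains. Of the 31 lower domains 30 also had a shorter called length with FK506, 25 were lower per kb, and 7 of these passed the limit per kb.

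The largest decrease was that of 1190002H23Rik. Introns of 8030451A03Rik at chr4:63741225-63747628 had no peak in NT cells, 1053 tags with curdlan and 218 with FK506, a ratio of 0.23 (0.20 to 0.27), and held sites of 105 and 78 NFATc2 tags. An intergenic domain 212166 bp upstream of Agr3 had no NT peak, 420 tags with curdlan and 123 with FK506 (0.33, 0.27 to 0.41). In an intron of Itpkb, a kinase of inositol trisphosphate, the tags were 124, 151 and 50, with a ratio of 0.37 (0.27 to 0.52). Higher with FK506 were domains near Ufm1 (255 tags with curdlan and 471 with FK506, ratio 2.084), in Src (115 and 197, 1.93), in Fnip2 (143 and 231, 1.82), in Swap70 (382 and 583, 1.72) and near Dok2 (90 and 136, 1.71). The NFATc2 sites in domains lower with FK506 held GGAAAA at 25 of 39 (64.1%, 48.4 to 77.3%), and those in domains higher with FK506 at 5 of 9 (55.6%, 26.7 to 81.1%). The share was 64 of 118 (54.2%, 45.3 to 63.0%) in domains higher with curdlan and 31 of 86 (36.0%, 26.7 to 46.6%) in domains lower with curdlan. Over all marked sites it was 45.4%.

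**Figure D5:**
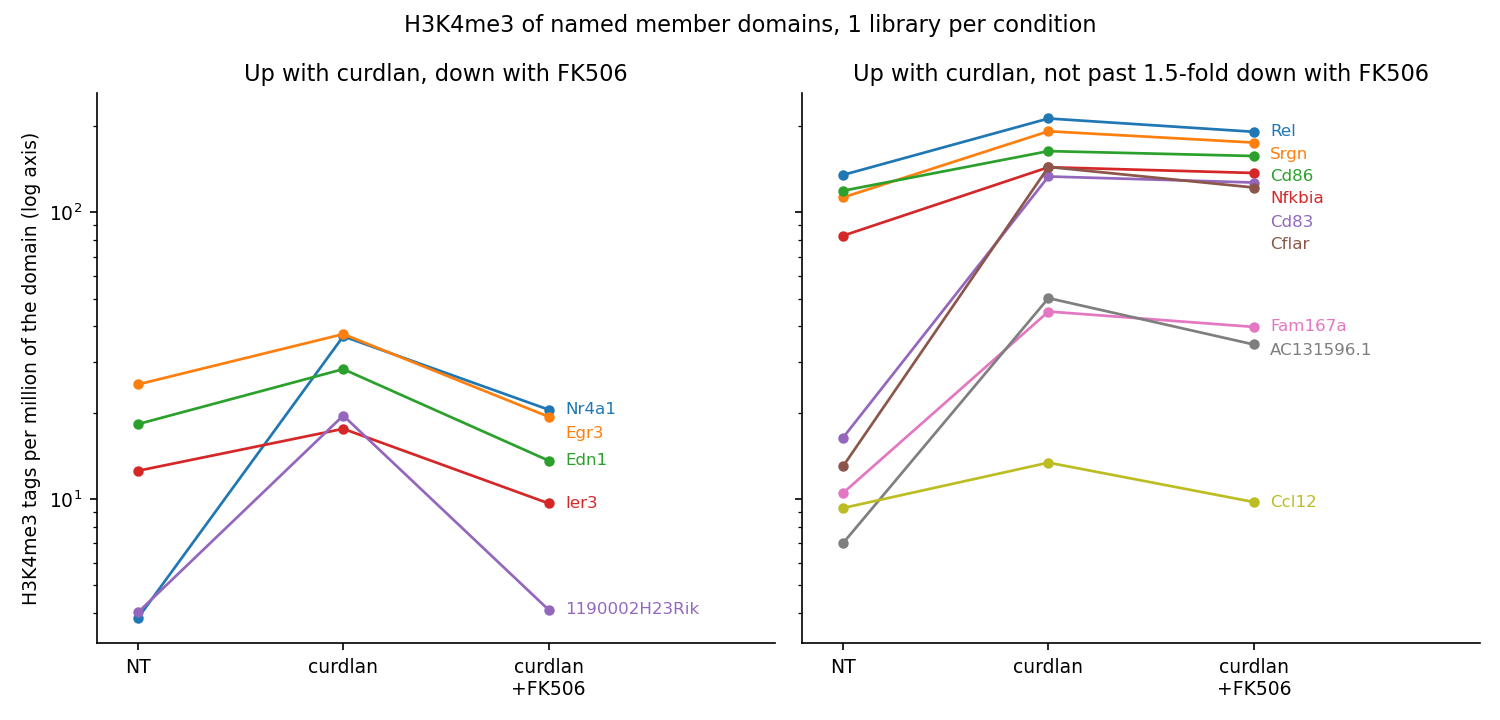
H3K4me3 RPM (y axis, log) of named domains in the NT, curdlan and curdlan with FK506 libraries (x axis), 1 library per condition and 1 line per domain. Left, 5 of the domains named in the text that were more than 1.5-fold higher with curdlan and more than 1.5-fold lower with FK506, at Nr4a1, Egr3, Edn1, Ier3 and 1190002H23Rik. Other domains, such as those at Hdc, Hook1 and Snx10, also met both limits and are not drawn. The RPM are sums over called peaks, whose length differed between the libraries, and per kb the Edn1 and Hdc domains were not higher with curdlan. Right, 9 domains higher with curdlan that were not 1.5-fold lower with FK506, such as Cflar with 144 and 122 RPM.

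Some domains had a peak in the curdlan or the NT list and none in the other. Without a TSS, 104 of 1037 domains with a site (10.0%, 8.346 to 12.01%) had a curdlan peak and no NT peak, beside 8.32% of all domains without a TSS. A peak in NT cells and none with curdlan was found for 220 (21.2%, 18.8 to 23.8%), beside 19.0%. Of these, 42 and 62 had a peak with FK506 too. Most were small, with medians of 130.5 and 101.5 tags. Intergenic domains near Ahr, 2610204G07Rik and a U6 RNA had 386, 403 and 389 tags with curdlan alone, and an intron of Fbxw11 had 347 with FK506 alone. The Gcnt1 site of 624 NFATc2 tags touched a domain with 216 tags in NT cells and no peak in the other lists. The absence of a peak is not a measured level: 1 Cux1 domain had 953 tags in NT cells, 914 with curdlan and no peak with FK506, while the neighbouring Cux1 domain had 1067, 862 and 920.

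Genes were assigned to a site when they held it or had the nearest TSS. The 1670 sites gave 1550 genes, and 54 genes had 3 or more sites, led by Cd9, Klf6, Ptprj and Trib1 with 5 each. Of 22350 protein-coding genes 5.51% had a site. Members of 7 lists of genes that fit these cells were counted. The lists were chosen with earlier results known, and the cytokine list holds genes the study itself chose with these cells, so their counts are no independent evidence. Beyond the 4 sites of each list with the most NFATc2 tags, list members named here were chosen after their values were seen. The counts of domains past the limit below stand beside the shares over all domains. These were 4.34% higher and 2.74% lower with curdlan, and 0.372% higher and 1.17% lower with FK506. With so few domains per list, the lack of a domain past the limit is no result about that list.

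The list of immediate early genes, those switched on first after a stimulus, and related transcription factors had a site at 11 of 27 genes (Batf, Batf3, Egr1, Egr3, Fosl2, Ier2, Ier3, Klf6, Nr4a1, Nr4a2 and Nr4a3). With curdlan 5 of 14 domains passed 1.5-fold upwards and 0 downwards, and the median log2 change was 0.33, beside 0 over all domains. With FK506 4 of 14 were lower and 0 higher, with a median of −0.13. Upstream of Egr3, a zinc finger factor, sites of 326 and 298 NFATc2 tags at 15241 and 11123 bp shared a domain of 418, 800 and 377 tags in NT, curdlan and FK506, with ratios of 1.66 (1.47 to 1.87) and 0.53 (0.47 to 0.60). The site 8387 bp upstream of Ier3 had 414 NFATc2 tags in a domain of 209, 374 and 188 tags, with ratios of 1.55 (1.304 to 1.843) and 0.57 (0.47 to 0.68). In both the FK506 library was below the NT library in RPM, at 19.4 and 25.1 for Egr3 and at 9.66 and 12.5 for Ier3. These RPM are not centred. The median domain also had lower RPM with curdlan than in NT cells (log2 −0.14), and lower with FK506 than with curdlan (−0.05). No centred ratio of FK506 to NT was computed, so a level below that of NT cells was not established. Per kb of called peak the RPM, not centred, were 6.57, 6.93 and 5.04 for Egr3 in NT, curdlan and FK506. For Ier3 they were 4.11, 5.03 and 3.52, so both differences between NT and curdlan were small per kb. Egr1 had a domain with its TSS at 769, 2367 and 1601 tags (2.66 and 0.76) and a second one 4864 bp upstream at 544, 762 and 590 (1.21 and 0.87). Nr4a3 had 1740, 4510 and 3808 tags (2.24 and 0.95). The 5 sites of Klf6 lay in 4 domains, and those with a peak in NT and curdlan had ratios of 0.81 to 1.21.

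Cytokine and chemokine genes had a site at 6 of 47 (Ccl12, Ccl17, Edn1, Il17d, Tnfsf14 and Tnfsf8). Of 6 domains with NT and curdlan peaks 2 passed 1.5-fold upwards and 0 downwards, and of 7 with curdlan and FK506 peaks 1 was lower and 0 higher. Ccl12, a chemokine for monocytes, had a site of 462 NFATc2 tags 1242 bp upstream of the TSS. Its summit lay just outside the edge of a domain with 155, 285 and 190 tags (1.59, 1.304 to 1.947, and 0.75, 0.62 to 0.91). Upstream of Edn1, the precursor of endothelin-1, 3 sites of 365 to 383 NFATc2 tags between 42774 and 55335 bp from the TSS overlapped 2 domains. The summit of the site with 365 tags lay outside its domain, and only the flank of the NFATc2 peak reached the mark. The domain nearer to Edn1, at chr13:42348430-42352963, had 304, 604 and 265 tags (1.72, 1.495 to 1.98, and 0.50, 0.43 to 0.57), and the farther one had 186, 316 and 275 (1.47 and 0.98). The called length of the nearer domain was 2737 bp in NT cells and 4534 bp with curdlan. Its RPM per kb of called peak, not centred, were 6.67, 6.26 and 4.41, and those of the farther domain 3.93, 3.47 and 4.97. Per kb, neither domain was higher with curdlan than in NT cells. A site 6774 bp upstream of Ccl17, a ligand of CCR4, had 264 NFATc2 tags in a domain with no NT peak, 374 tags with curdlan and 244 with FK506. Tnfsf8, the CD30 ligand, held sites of 253 and 115 NFATc2 tags in a domain of 2528, 3035 and 1960 tags (1.04 and 0.73).

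NF-κB genes had a site at 3 of 18, and 2 of the 3 domains passed 1.5-fold upwards with curdlan. Nfkbia, the inhibitor IκBα and a target of NF-κB, had 1380, 3054 and 2667 tags (1.92, 1.80 to 2.04, and 0.99). Rel had 2247, 4518 and 3712 tags (1.74, 1.65 to 1.83, and 0.93), and its called length went from 5841 to 12018 bp. Tnip1 had 528, 735 and 605 tags (1.20 and 0.93). None of the 3 was 1.5-fold lower with FK506.

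Maturation, costimulation and migration genes had a site at 13 of 31, and 2 of 10 domains passed 1.5-fold upwards with curdlan, those of Cd83 and Cd86. Cd86, the costimulatory ligand of CD28, had 1980, 3477 and 3056 tags (1.52, 1.44 to 1.61, and 0.99). With FK506 0 of 9 passed the limit. An exon of Itgam, the CD11b integrin chain, held a site of 187 NFATc2 tags in a domain that contained the TSS of Itgax, the CD11c chain, and had 2553, 3773 and 3702 tags (1.28 and 1.11), and Pdcd1lg2, the PD-1 ligand PD-L2, had 166, 201 and 165 tags at a site of 270 NFATc2 tags (1.05 and 0.93).

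DC and myeloid transcription factors had a site at 17 of 39 genes, with 28 sites in 25 domains. Of 15 domains 1, in an intron of Etv6, passed 1.5-fold upwards with curdlan (133 and 235 tags, ratio 1.53), and of 13 domains 1, upstream of Id2, was higher with FK506 (328 and 443 tags, ratio 1.52), which left a median log2 change of −0.03 and 0.07. Cux1 held sites of 557 and 386 NFATc2 tags, and Runx1 had sites of 335 and 152 at more than 200 kb upstream in a domain of 225 and 338 tags with no FK506 peak. Sfpi1, the gene of PU.1, had sites of 81 and 285 NFATc2 tags at 2374 and 4165 bp that overlapped a domain of 367, 400 and 309 tags (0.94 and 0.87). The summit of the site with 285 tags lay outside this domain.

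Feedback regulators had a site at 11 of 27 genes, and 0 of 9 domains passed 1.5-fold in either direction with curdlan and 0 of 8 with FK506. Over all domains the shares were 4.34% higher and 2.74% lower with curdlan, and 0.372% and 1.17% with FK506, so these counts do not set the list apart. Spry1 had 170, 281 and 205 tags (1.43, 1.18 to 1.74, and 0.82), and the domains with the most NFATc2 tags at Tgif1, Zfp36l1 and Peli1 had ratios of curdlan to NT of 1.25, 1.07 and 0.79. Genes of dectin-1, calcineurin and NFAT signalling had a site at 4 of 34 (Btk, Nfatc1, Ppp3ca and Rcan3), and 0 of 4 domains passed the limit in either comparison. Nfatc1 had the largest ratio of curdlan to NT among them, 1.34 (1.276 to 1.397) in a domain of 14580 bp, with 0.85 (0.81 to 0.89) for FK506. Ppp3ca, the catalytic subunit of calcineurin, had 289, 288 and 257 tags in an intronic domain.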

How the data were processed

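ChIP-seq peak lists of NFATc2-V5 and of H3K4me3 (NT, curdlan, curdlan with FK506) in D1 cells were used, 1 library per condition. Single-end reads had been aligned by the authors to mm9 (Bowtie), and each library was compared with its input by MACS 1.4.2, as the file headers name it, at a p-value threshold of 1e-05, with a narrower band width for NFATc2 than for H3K4me3. The deposited lists give the count of tags in each peak, not normalized, a score made from log10 of the p-value, the fold enrichment as a ratio to the local input background, and the FDR in percent, which served only as a filter in an alternative. Header totals of tags were used to obtain RPM (tags per 1000000). Per the file headers no more than 1 tag was kept per position, and this filter removed none.

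TSSs came from all transcripts of the Ensembl 65 annotation of mm9. Overlapping H3K4me3 peaks were joined into domains. Tags of a domain were summed over its peaks, and log2 ratios were centred on the median of all domains with a peak in both lists. A domain with no peak in a list has no value there. Motifs were counted on both strands within 100 bp of summits. Steps were tested on simulated data with planted answers. Named sites were the 10 with most NFATc2 tags, the 8 largest rises and 5 largest falls with curdlan and 5 of each with FK506 (at least 100 tags in the higher list), sites of the 5 domains with most sites, the 5 in domains without a TSS and 5 in domains of 1 list with most H3K4me3 tags, and up to 4 per gene list with most NFATc2 tags, and further members of a list are given by their values. The result for 1 of these sites is not reported here. The sites and lists were chosen with earlier results of these data known. Sequences for 12 sites came from the mm9 genome, leaving out chromosome 18. Sequences were read with pysam 0.24.0, tables with pandas 2.3.3, and intervals computed with scipy 1.17.1 under Python 3.11.15.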

Additional observations from a re-analysis of the deposited data

How the results depend on the processing

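With 1 library per condition there is no spread between replicates. No paired analysis was possible because each condition had 1 library and the results come from no test. Of 21 alternatives 10 moved the number of sites or domains by less than 1.5 times, or the share within its interval, and 11 moved it farther. Requiring a peak in all 3 H3K4me3 lists left 1072 sites, and NFATc2 peaks of p 1e-10 or less left 947 of 4760. The share in a domain that contained a TSS or came within 1 kb of one was 39.04%. Domains past the limit with curdlan over NT numbered 79 per kb of called peak, 359 by fold enrichment and 44 at a fold of 2 (36 higher, 8 lower), beside 181. With FK506 over curdlan they numbered 277 by fold enrichment and 9 at a fold of 2 (1 higher, 8 lower), beside 40, and 28 per kb with the direction turned (20 higher, 8 lower). GGAAAA was within 50 bp at 33.11% of sites and within 250 bp at 59.76%, and GGAAA, an alternative chosen after seeing the data, within 100 bp at 87.07%. The wider or shorter search itself sets these shares. For the others the cause was not tested. Domains under about 100 tags have wide counting intervals, and no peak is not a level of 0.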
